A study of Saccharomyces cerevisiae and Saccharomyces mikatae and Saccharomyces paradoxus with 13 samples.

Results

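The 10 genes described here are the budding yeast cell cycle inhibitor FAR1 and 9 genes that act at Start, the commitment point in G1, out of 6132 ORFs on the arrays. They were chosen by name: FAR1 (YJL157C), the G1 cyclins CLN1 (YMR199W), CLN2 (YPL256C) and CLN3 (YAL040C), the Pho85 cyclins PCL1 (YNL289W), PCL2 (YDL127W) and PCL9 (YDL179W), the Cdc28 inhibitor SIC1 (YLR079W), the Start repressor WHI5 (YOR083W) and the transcription factor SWI4 (YER111C). Each array was spotted with S. cerevisiae cDNA and compared 2 RNA samples, so each value is a ratio and not a level. There were 4 alpha factor arrays of S. mikatae (a haploid of type a derived from IFO 1815), 3 of S. paradoxus (a haploid of type a derived from CBS432), 3 mating arrays of S. cerevisiae (BY4741 with BY4742) and 3 alpha factor arrays of S. cerevisiae (BY4741). Alpha factor cells were a cells grown in YPD and given 6 µM alpha factor for 60 min, and their reference was untreated cells of the same species. The mating sample was a and alpha cells kept together on a filter on YPD agar for 90 min, and its reference was the same 2 strains kept apart until RNA extraction. Each species was represented by 1 strain, and all strains were wild type per the labels.

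In growing cells, Cln3 bound to the kinase Cdc28 relieves the repressor Whi5 from SBF, the transcription factor that contains Swi4. SBF then drives CLN1, CLN2 and PCL1, and the resulting Cln-Cdc28 kinase commits the cell to division and triggers destruction of the inhibitor Sic1. Alpha factor, the mating pheromone of alpha cells, activates the MAP kinase Fus3 in a cells. Fus3 phosphorylates Far1, which then opposes Cln-Cdc28 and holds cells in G1, and Far1 also anchors the polarity machinery of the mating projection.

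PCL2 and FAR1 rose most among the 10 genes, and CLN3 rose by less. The paralogues CLN1 and CLN2 did not move together on the arrays that measured both. In S. mikatae, 3 of 9 tested genes rose and 1 fell, against a background of 23.3% of all 4367 tested genes higher and 24.7% lower. In S. paradoxus, 3 of 10 rose and 2 fell, against 23.9% higher and 24.6% lower of 4748 genes. In mating S. cerevisiae, 1 of 4 rose and 2 fell, against 19.4% higher and 20.2% lower of 3712 genes. In S. cerevisiae with alpha factor, 4 of 10 rose and 2 fell, against 16.3% higher and 17.3% lower of 5789 genes. These shares were not tested against the background, and the description below rests on the single genes. The median log2 ratio of the members was −0.017 in S. mikatae, 0.096 in S. paradoxus, −0.18 in mating and 0.12 in S. cerevisiae with alpha factor, beside medians of all genes of 0.0042, −0.0026, −0.0015 and −0.0018.

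Values are log2 ratios of the treated or mated sample over its own reference, with each array centred on its median. A gene is said to have risen or fallen where limma's test of its group mean against 0 had an adjusted p under 0.05 (Benjamini-Hochberg over all genes tested). The labels name the dye of the treated sample in 2 ways, so the direction is likely and not certain. FIG1, KAR4, PRM1, BAR1, FUS1 and STE2, which pheromone is known to induce, all rose in each alpha factor group under the direction used, and the 5 of them tested in mating rose too. FIG1, needed for cell fusion, had mean log2 ratios of 4.62 in S. mikatae, 5.02 in S. paradoxus, 4.97 in mating and 4.97 in S. cerevisiae with alpha factor. These are ratios of bulk RNA, in which a change in the share of cells in a cell cycle phase and a change of RNA per cell cannot be told apart. Markers of a cells rose in every group, 4 of 4 tested in S. mikatae, 7 of 7 in S. paradoxus, 6 of 6 in mating and 7 of 7 in S. cerevisiae with alpha factor. Among them, STE2 and BAR1 also served to set the direction, so their rise is not a separate observation. Of the alpha cell markers, 1 of 3, 1 of 3, 3 of 4 and 2 of 3 rose in the same groups.

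The members had 106 of 130 possible values, and 4 of them (CLN1, PCL2, PCL9 and SWI4) were measured on all 13 arrays, as were 2194 of the 6132 ORFs. CLN2 had no value in S. mikatae, CLN2 and WHI5 had values on 2 of 3 S. paradoxus arrays, and mating had none for FAR1, CLN2, CLN3, PCL1, SIC1 or WHI5. The share of ORFs with no value at all was 26.6% in S. mikatae, 20.8% in S. paradoxus and 37.2% in mating, against 2.15% in S. cerevisiae with alpha factor. Arrays of 1 group correlated with each other at 0.736 to 0.899 over all genes, and arrays of different groups at 0.369 to 0.701. Mismatch between S. cerevisiae probes and RNA of the other species was not tested.

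**Figure D1:**
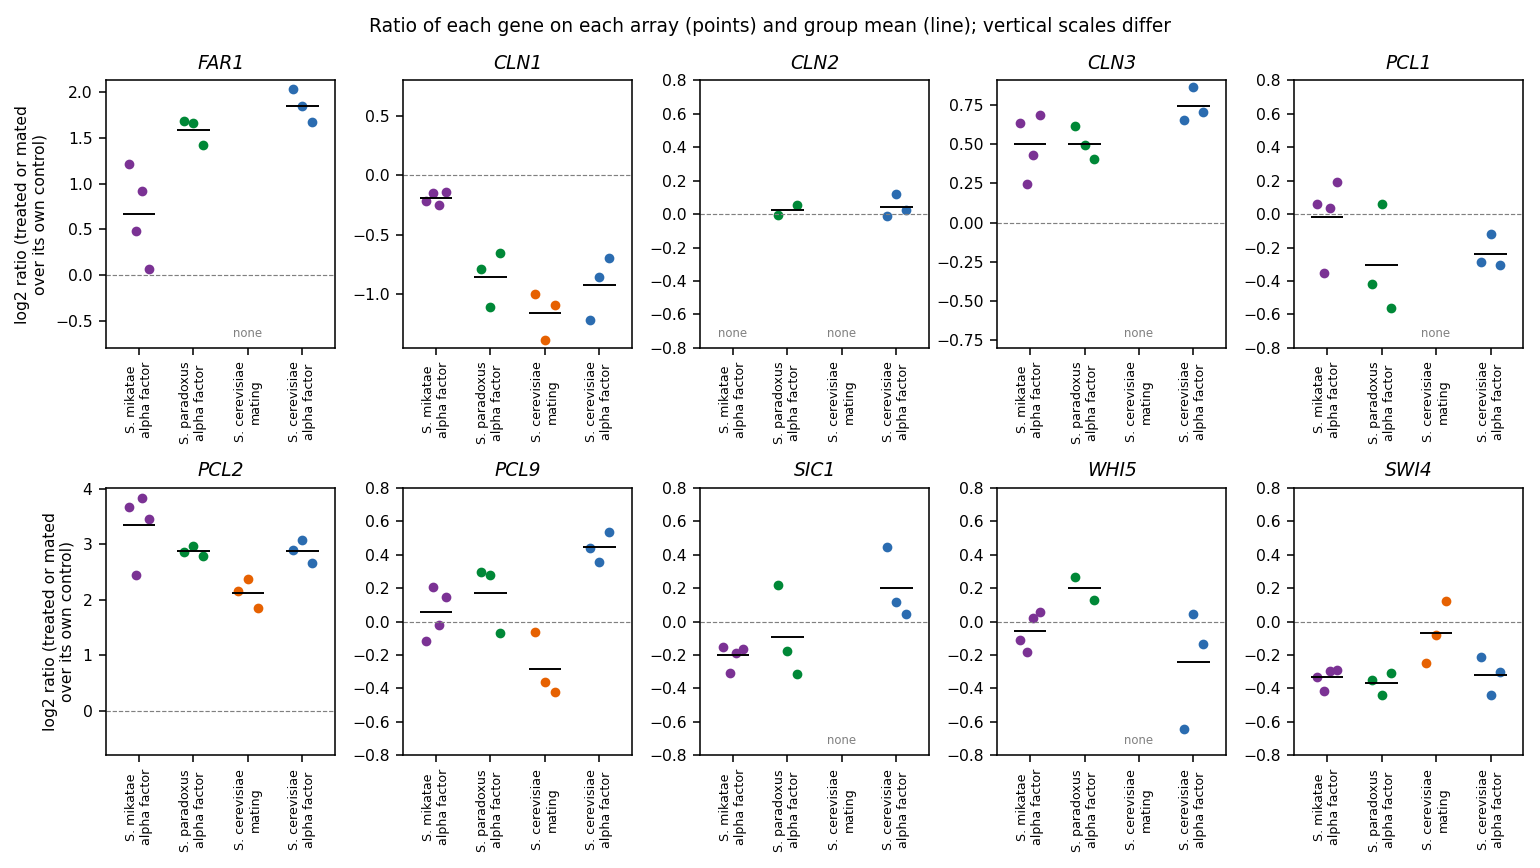
Log2 ratio (vertical axis, scale differing by panel) of each of the 10 genes on every array (points) with the mean of each group (line), for S. mikatae, S. paradoxus, mating and S. cerevisiae with alpha factor from left to right. FAR1 lies lower and CLN1 lies nearer 0 in S. mikatae than in the other groups measured, and "none" marks a group with no value.

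FAR1, the inhibitor that pheromone signalling uses to arrest cells in G1, rose in all 3 species. On the 4 S. mikatae arrays its log2 ratios were 1.21, 0.48, 0.92 and 0.066. On the S. paradoxus arrays they were 1.69, 1.66 and 1.42, and on the S. cerevisiae arrays with alpha factor they were 2.04, 1.85 and 1.68. All S. mikatae arrays lay below every array of the other species, and replicate 4 was close to no change. The mean was 0.67 ± 0.501 (SD, n = 4), or 1.59-fold, in S. mikatae, with an adjusted p of 0.00253 in limma. That test uses 1 spread for FAR1 pooled over the groups, so its p does not measure the larger S. mikatae SD. In S. paradoxus the mean was 1.59 ± 0.147 (SD, n = 3), 3.02-fold, and in S. cerevisiae it was 1.86 ± 0.178 (SD, n = 3), 3.62-fold. FAR1 ranked 156 from the highest of all genes tested in S. mikatae, 39 in S. paradoxus and 28 in S. cerevisiae.

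The FAR1 response differed between species. For S. mikatae minus S. cerevisiae it was −1.19 on the log2 scale (95% interval −1.67 to −0.70, adjusted p = 0.00499 in limma), and S. mikatae minus S. paradoxus was −0.92 (−1.41 to −0.44, adjusted p = 0.0173 in limma). S. paradoxus minus S. cerevisiae was −0.26 with an interval of −0.78 to 0.26, which missed the threshold (adjusted p = 0.482 in limma) and leaves differences up to either bound within the error. The difference from S. paradoxus was lost without S. paradoxus replicate 1 (−0.87, adjusted p = 0.0639 in limma) or replicate 2 (−0.89, adjusted p = 0.0575). FAR1 also varied among the S. mikatae arrays, with an SD larger than that of 98.4% of the 4367 genes tested there, whose median SD was 0.146.

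S. mikatae replicate 4, lowest for FAR1, was not the lowest array for the 5 pheromone-induced genes looked up array by array. FUS3, the MAP kinase that phosphorylates Far1, had log2 ratios of 1.11, 1.10, 1.27 and 1.30 on S. mikatae replicates 1 to 4. KAR4, a transcription factor for nuclear fusion genes, had 4.39, 4.23, 4.55 and 4.30. Both genes stayed high on replicate 4. FIG1 had 4.46, 4.37, 4.98 and 4.69, FUS1 of cell fusion had 2.13, 1.72, 2.40 and 1.73, and STE2, the alpha factor receptor, had 1.85, 2.16, 1.84 and 2.02. FUS1 was near its lowest value on replicate 4, and the source of the FAR1 spread was not tested.

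The 3 genes whose ratios lay nearest to those of FAR1, by root mean square difference over 10 arrays, were PRM6 (0.30), HYM1 (0.33) and FUS3 (0.48), out of 3521 genes with a median difference of 1.45. PRM6, a membrane protein gene induced by pheromone, averaged 0.54 in S. mikatae, 1.71 in S. paradoxus and 1.75 in S. cerevisiae. HYM1, which encodes a component of the RAM network of cell separation, averaged 0.71, 1.26 and 1.63 in the same order. FUS3 averaged 1.19 in S. mikatae, 1.45 in S. paradoxus and 2.06 in S. cerevisiae. All 3 therefore had their lowest mean in S. mikatae, a pattern that the choice by nearness to FAR1 fixes in part.

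CLN3, the upstream G1 cyclin that initiates Start, rose in all 3 species. The log2 ratios were 0.63, 0.25, 0.43 and 0.68 in S. mikatae, 0.61, 0.50 and 0.40 in S. paradoxus, and 0.66, 0.87 and 0.70 in S. cerevisiae. Every array of every species was above 0. The means were 0.50 ± 0.201 (SD, n = 4), 0.50 ± 0.105 (SD, n = 3) and 0.74 ± 0.11 (SD, n = 3), which are 1.41-fold, 1.42-fold and 1.67-fold. The adjusted p values in limma were 0.000263 in S. mikatae, 0.000728 in S. paradoxus and 0.000112 in S. cerevisiae.

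No species difference was called for CLN3. The difference S. mikatae minus S. cerevisiae was −0.24 (95% interval −0.50 to 0.017), S. paradoxus minus S. cerevisiae was −0.24 (−0.51 to 0.040), and S. mikatae minus S. paradoxus was −0.0048 (−0.26 to 0.25). The S. paradoxus arrays lay below all S. cerevisiae arrays, and that difference still missed the threshold (adjusted p = 0.226 in limma). The gene nearest to CLN3 was STE12, the transcription factor of the pheromone response, at a root mean square difference of 0.15, followed by RIB1 (0.16) of riboflavin synthesis and GPC1 (0.17) of phospholipid synthesis, beside a median of 0.641 over all genes compared.

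CLN1, a G1 cyclin driven by SBF, fell in S. paradoxus, in mating and in S. cerevisiae with alpha factor. On the S. mikatae arrays its log2 ratios were −0.22, −0.15, −0.25 and −0.14. They were −0.79, −1.11 and −0.65 in S. paradoxus, −1.0, −1.38 and −1.09 in mating, and −1.22, −0.85 and −0.70 in S. cerevisiae with alpha factor. Every array was below 0, and all 4 S. mikatae arrays lay nearer 0 than any other array. The S. mikatae mean was −0.19 ± 0.054 (SD, n = 4), which did not pass the test (adjusted p = 0.106 in limma) and passed in a fit of the S. mikatae arrays alone (adjusted p = 0.0431). CLN1 fell 1.8-fold in S. paradoxus (−0.85 ± 0.235, SD, n = 3), 2.23-fold in mating (−1.16 ± 0.201, SD, n = 3) and 1.9-fold in S. cerevisiae with alpha factor (−0.92 ± 0.268, SD, n = 3). It ranked 1180 from the lowest of all genes tested in S. mikatae, 151 in S. paradoxus, 28 in mating and 69 in S. cerevisiae with alpha factor.

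The difference in CLN1 between S. mikatae and both other species was called. It was 0.74 for S. mikatae minus S. cerevisiae (95% interval 0.43 to 1.04, adjusted p = 0.00396 in limma) and 0.66 for S. mikatae minus S. paradoxus (0.36 to 0.96, adjusted p = 0.00661). S. paradoxus minus S. cerevisiae was 0.072 (−0.25 to 0.39, adjusted p = 0.775), and mating minus alpha factor in S. cerevisiae was −0.23 (−0.55 to 0.089, adjusted p = 0.304). RAD27, a flap endonuclease gene of DNA replication, was nearest to CLN1 over all 13 arrays, with a root mean square difference of 0.31 beside a median of 0.867 over 2193 genes. RAD27 averaged −0.11 in S. mikatae, −0.80 in S. paradoxus, −0.75 in mating and −0.86 in S. cerevisiae with alpha factor. RSN1 (0.33), a membrane protein gene, came next. The choice by nearness to CLN1 fixes in part how the RAD27 means follow those of CLN1.

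CLN2, the close paralogue of CLN1, stayed near 0 where it was measured. Its log2 ratios were −0.0055 and 0.052 in S. paradoxus and −0.0090, 0.12 and 0.022 in S. cerevisiae. The means of 0.023 ± 0.0409 (SD, n = 2) and 0.044 ± 0.0673 (SD, n = 3) were not called, and S. paradoxus minus S. cerevisiae was −0.021 (95% interval −0.29 to 0.25). On the same arrays, CLN1 minus CLN2 lay between −0.784 and −0.706 in S. paradoxus (n = 2) and between −1.21 and −0.720 in S. cerevisiae (n = 3), so CLN1 was the lower of the pair on all 5. Paralogues can cross-hybridise on cDNA spots, and this was not tested here. CLN2 had no value in S. mikatae or mating. Spot intensities were not used, so whether the CLN2 spot was too weak to show a change was not tested.

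PCL2, a cyclin of the kinase Pho85, rose more than any other member tested in each group, with only 4 members tested in mating. Its log2 ratios were 3.67, 2.46, 3.83 and 3.45 in S. mikatae, 2.86, 2.96 and 2.80 in S. paradoxus, 2.16, 2.37 and 1.86 in mating, and 2.90, 3.07 and 2.66 in S. cerevisiae with alpha factor. Replicate 2 was the low array in S. mikatae, and all 3 mating arrays lay below every alpha factor array. The mean fold was 10.2 in S. mikatae (3.35 ± 0.617, SD, n = 4), 7.33 in S. paradoxus (2.87 ± 0.0837, SD, n = 3), 4.38 in mating (2.13 ± 0.258, SD, n = 3) and 7.34 in S. cerevisiae with alpha factor (2.88 ± 0.209, SD, n = 3). PCL2 ranked 6 from the highest in S. mikatae, 13 in S. paradoxus, 14 in mating and 13 in S. cerevisiae with alpha factor.

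No difference in PCL2 between groups was called in the fit of all arrays with equal weights. S. mikatae minus S. cerevisiae was 0.47 (95% interval −0.071 to 1.02, adjusted p = 0.256 in limma) and S. mikatae minus S. paradoxus was 0.48 (−0.067 to 1.02, adjusted p = 0.244). Both passed without S. mikatae replicate 2, at 0.77 (adjusted p = 0.00514) and 0.78 (adjusted p = 0.00511), and with array weights, at 0.77 (adjusted p = 0.0105) and 0.68 (adjusted p = 0.0367). The S. mikatae SD of PCL2 was larger than that of 99.4% of genes tested there. On S. mikatae replicate 2, FUS3 (1.10), FUS1 (1.72), KAR4 (4.23) and FIG1 (4.37) also had the lowest of their 4 values. Their next lowest values were close, at 1.11, 1.73, 4.30 and 4.46, while PCL2 had 2.46 and a next lowest of 3.45. STE2 (2.16) had its highest value on replicate 2. The part of this array in the result was not tested further. S. paradoxus minus S. cerevisiae was −0.0034 (−0.59 to 0.58). Mating minus alpha factor was −0.75 (−1.33 to −0.16), which missed the threshold after adjustment (adjusted p = 0.0765 in limma). It passed with array weights (−0.70, adjusted p = 0.0299), with only genes on all 13 arrays (adjusted p = 0.0445) and in a fit of the arrays compared (adjusted p = 0.0230).

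AFR1, a regulator of projection shape and of receptor signalling, was nearest to PCL2 over all 13 arrays (root mean square difference 0.44, beside a median of 2.92). AFR1 averaged 3.13 in S. mikatae, 2.36 in S. paradoxus, 2.40 in mating and 2.39 in S. cerevisiae with alpha factor. BAR1, the protease that degrades alpha factor, followed at 0.65, and the ORF YDR124W at 0.87. The choice by nearness to PCL2 fixes in part how the AFR1 means follow those of PCL2.

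PCL1, another Pho85 cyclin, which SBF drives at Start, was not called in any species in the fit of all arrays with equal weights. Its log2 ratios were 0.059, −0.35, 0.036 and 0.19 in S. mikatae, −0.42, 0.059 and −0.56 in S. paradoxus, and −0.29, −0.12 and −0.30 in S. cerevisiae. All S. cerevisiae arrays were below 0, while the other species had arrays on both sides. The S. paradoxus mean of −0.31 ± 0.325 (SD, n = 3) missed the threshold (adjusted p = 0.0549 in limma) and passed without replicate 2 (−0.49, adjusted p = 0.00871). With array weights PCL1 was called lower in S. paradoxus (−0.33, adjusted p = 0.0180) and in S. cerevisiae (−0.27, adjusted p = 0.0217). PCL1 minus PCL2 on the same array averaged −3.37 ± 0.434 (SD, n = 4) in S. mikatae, −3.18 ± 0.243 (SD, n = 3) in S. paradoxus and −3.11 ± 0.133 (SD, n = 3) in S. cerevisiae. The species differences of PCL1 were 0.22 (95% interval −0.13 to 0.57) for S. mikatae minus S. cerevisiae, −0.071 (−0.45 to 0.30) for S. paradoxus minus S. cerevisiae and 0.29 (−0.061 to 0.64) for S. mikatae minus S. paradoxus. Its nearest genes were ATG23 (0.11), of autophagy, and DBR1 (0.12), of intron lariat debranching, beside a median of 0.414.

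PCL9, the Pho85 cyclin expressed at the transition from mitosis to G1 under Swi5, fell in mating and rose with alpha factor in S. cerevisiae. Its log2 ratios were −0.12, 0.21, −0.021 and 0.15 in S. mikatae, and 0.30, 0.28 and −0.068 in S. paradoxus. They were −0.064, −0.36 and −0.42 in mating, and 0.44, 0.35 and 0.54 in S. cerevisiae with alpha factor. No mating array reached a value as high as any S. cerevisiae array with alpha factor. Mating minus alpha factor was −0.73 (95% interval −1.01 to −0.44, adjusted p = 0.00282 in limma), from means of −0.28 ± 0.193 and 0.44 ± 0.0918 (SD, n = 3 each). Against 0, the fall in mating was 1.22-fold (adjusted p = 0.0276), and the rise with alpha factor was 1.36-fold (adjusted p = 0.0031). The fall was lost without mating replicate 2 (−0.24, adjusted p = 0.143) or replicate 3 (−0.21, adjusted p = 0.175). Mating and alpha factor arrays also differ in the cells present, in growth on a filter and in time, which cannot be told apart here.

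In the other species PCL9 was not called. The S. mikatae mean was 0.054 ± 0.15 (SD, n = 4), and all its arrays lay below those of S. cerevisiae with alpha factor. That difference was −0.39 (95% interval −0.66 to −0.12, adjusted p = 0.0567 in limma), and it passed without S. mikatae replicate 2 (−0.44, adjusted p = 0.0447). The S. paradoxus mean was 0.17 ± 0.206 (SD, n = 3), which passed without replicate 3 (0.29, adjusted p = 0.0385), and S. paradoxus minus S. cerevisiae was −0.27 (−0.56 to 0.010). DSE4, a glucanase gene for separation of the daughter cell, was nearest to PCL9 over 13 arrays (0.15, beside a median of 0.421), with means of 0.063 in S. mikatae, 0.29 in S. paradoxus, −0.43 in mating and 0.29 in S. cerevisiae with alpha factor. PIN4 and IBD2 followed, each at 0.17. The choice by nearness to PCL9 fixes in part how the DSE4 means follow those of PCL9.

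SIC1, whose protein inhibits the S phase cyclin kinase until it is destroyed, was not called in any species in the fit of all arrays. Ratios of SIC1 on the log2 scale were −0.15, −0.31, −0.19 and −0.17 in S. mikatae, 0.22, −0.18 and −0.31 in S. paradoxus, and 0.44, 0.12 and 0.042 in S. cerevisiae. Every S. mikatae array was below 0 and every S. cerevisiae array above it. In a fit of the S. mikatae arrays alone SIC1 was called lower (−0.20, adjusted p = 0.0357 in limma), and the F test over the species passed without S. paradoxus replicate 1 (adjusted p = 0.0417). S. mikatae minus S. cerevisiae was −0.40 (95% interval −0.70 to −0.11), which missed the threshold after adjustment (adjusted p = 0.0802 in limma). S. paradoxus minus S. cerevisiae was −0.29 (−0.61 to 0.025), and S. mikatae minus S. paradoxus was −0.11 (−0.41 to 0.19). The genes nearest to SIC1 were ASN2 (0.093), THI73 (0.10) and MIG1 (0.14).

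WHI5, which restrains SBF until Cln3 acts, was not called either. Log2 ratios of WHI5 were −0.11, −0.18, 0.019 and 0.057 in S. mikatae, 0.27 and 0.13 in S. paradoxus, and −0.64, 0.045 and −0.13 in S. cerevisiae. The low S. cerevisiae replicate 1 carried most of the mean of −0.24 ± 0.357 (SD, n = 3), which was −0.044 without it, and the mean passed without replicate 2 (−0.39, adjusted p = 0.0429 in limma). The 2 S. paradoxus arrays lay above all arrays of the other species. S. paradoxus minus S. cerevisiae was 0.44 (95% interval 0.042 to 0.84, adjusted p = 0.127), S. mikatae minus S. paradoxus was −0.25 (−0.63 to 0.13), and S. mikatae minus S. cerevisiae was 0.19 (−0.15 to 0.52). CCW22 (0.13), TOM70 (0.14) and GAS5 (0.15) were nearest to WHI5, over the 9 arrays that measured it.

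SWI4, the DNA-binding subunit of SBF, fell in all 3 species. Its log2 ratios were −0.33, −0.42, −0.30 and −0.29 in S. mikatae, −0.35, −0.44 and −0.31 in S. paradoxus, −0.25, −0.079 and 0.12 in mating, and −0.21, −0.44 and −0.30 in S. cerevisiae with alpha factor. All 10 alpha factor arrays were below 0, and the mating arrays lay on both sides. The fall was 1.26-fold in S. mikatae (adjusted p = 0.000782 in limma), 1.29-fold in S. paradoxus (adjusted p = 0.00123) and 1.25-fold in S. cerevisiae (adjusted p = 0.00578). In S. cerevisiae it was lost without replicate 2 (−0.26, adjusted p = 0.0525). The mating mean was −0.068 ± 0.184 (SD, n = 3) and not called.

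No difference in SWI4 was called in the fit with equal weights. The value for S. mikatae minus S. cerevisiae was −0.016 (95% interval −0.23 to 0.20), S. paradoxus minus S. cerevisiae was −0.048 (−0.27 to 0.18), and S. mikatae minus S. paradoxus was 0.032 (−0.18 to 0.24). Mating minus alpha factor in S. cerevisiae was 0.25 (0.023 to 0.47, adjusted p = 0.121 in limma), which passed with array weights (0.28, adjusted p = 0.0419). FLC3 (0.092), KTR5 (0.11) and LEO1 (0.12) were nearest to SWI4 over all 13 arrays, beside a median of 0.404.

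**Figure D2:**
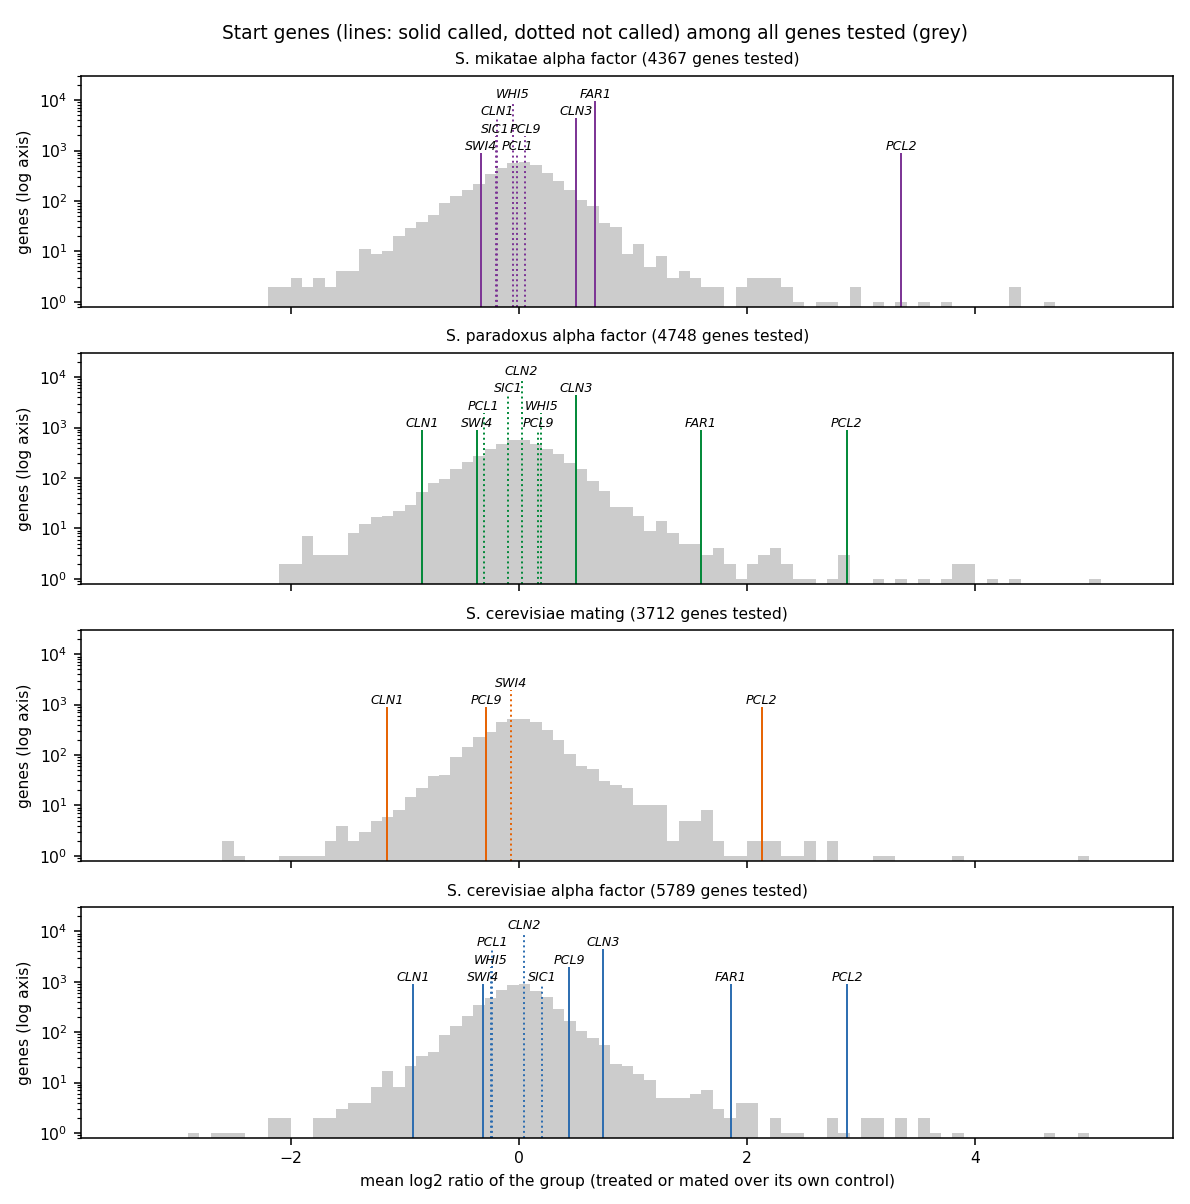
Mean log2 ratio (horizontal axis) of each member (lines, solid where the adjusted p was under 0.05 and dotted where not) over the distribution of all genes tested (grey, number of genes on a log axis), 1 panel per group. PCL2 lies in the upper tail in all 4 groups and FAR1 in S. paradoxus and S. cerevisiae, while CLN1 lies in the lower tail in every group but S. mikatae.

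Across the 9 genes tested in all 3 species, the moderated F test called a species difference for FAR1 (F = 16.5, adjusted p = 0.00499) and CLN1 (F = 17.6, adjusted p = 0.00291), against a background of 23.8% of 4084 genes. For S. mikatae minus S. cerevisiae, 2 of 9 members were called, against 11.9% of 4357 genes. For S. paradoxus minus S. cerevisiae, 0 of 10 were called in limma, against 16.3% of 4718 genes, and 1 of the 10 unadjusted p values, that of WHI5, was under 0.05. For S. mikatae minus S. paradoxus, 2 of 9 were called, against 13.7% of 4090 genes. For mating minus alpha factor in S. cerevisiae, 1 of 4 was called, against 16.0% of 3648 genes. The S. mikatae arrays enter both of its comparisons, and the S. cerevisiae arrays with alpha factor enter 3 of the 4 differences, so these counts are not independent. FAR1 and CLN1 were the called genes in both S. mikatae comparisons. FAR1 had the smaller rise there and CLN1 the smaller fall, and PCL2 had its highest mean there, a difference that was not called.

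**Figure D3:**
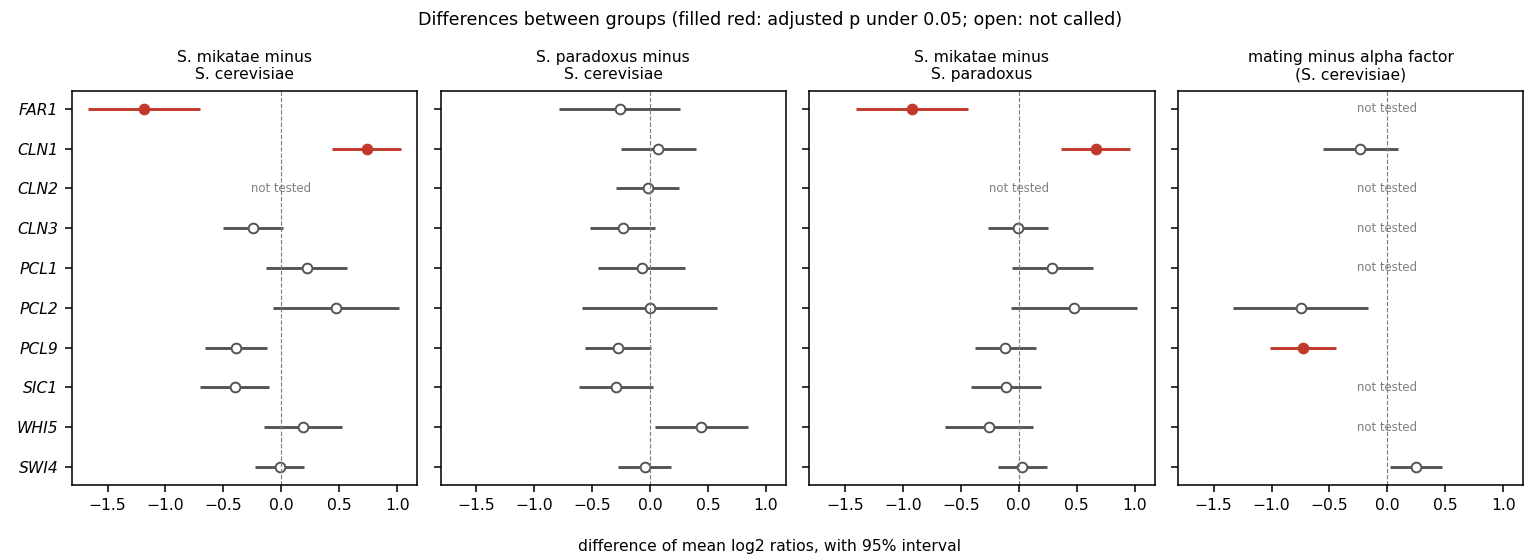
Difference of mean log2 ratios between groups (points) with its 95% interval (bars) for each member, 1 panel per comparison, filled red where the adjusted p was under 0.05 and open where not. FAR1 (−1.19 and −0.92) and CLN1 (0.74 and 0.66) are called in both S. mikatae comparisons, no gene is called for S. paradoxus minus S. cerevisiae, and PCL9 (−0.73) is called for mating minus alpha factor.

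Other genes of the pathway were counted in 6 lists of 75 genes in all, none of them a member, and no list was tested as a whole. SBF targets, taken as driven at Start by Swi4 with its partner Swi6, were listed from general knowledge, and binding was not tested. On this list, 9 of 13 tested genes fell in S. mikatae and 11 of 18 in S. paradoxus. In mating 8 of 14 fell, and in S. cerevisiae with alpha factor 12 of 20. Of all genes tested, 24.7%, 24.6%, 20.2% and 17.3% fell and 23.3%, 23.9%, 19.4% and 16.3% rose in the same groups, and the counts of this and the other lists are to be read beside these shares. The numbers that rose were 0, 2, 0 and 3, and the list medians were −0.27, −0.38, −0.41 and −0.50. RNR1, the large subunit of ribonucleotide reductase, fell in all 4 groups. Its means were −1.39 in S. mikatae, −1.33 in S. paradoxus, −1.18 in mating and −1.52 in S. cerevisiae with alpha factor. Whether SBF or the related factor MBF, described below, drives RNR1 was not tested. SVS1, a cell wall gene, fell by 2.12 in S. cerevisiae with alpha factor, and KRE6 (1.20) and EXG1 (0.62), genes of wall glucan, rose there. These genes differed between groups. S. mikatae minus S. cerevisiae was −1.0 for KRE6 and −0.92 for EXG1, both called. S. paradoxus minus S. cerevisiae was −1.56 for KRE6 and 1.57 for SVS1, both called, and −0.30 for EXG1, not called. Mating minus alpha factor was −1.18 for EXG1, 1.10 for SVS1, 0.34 for RNR1 and −1.34 for SRL1, also on the list, all called.

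Among MBF targets, the DNA replication and repair genes driven by Mbp1 with Swi6, 5 of 14 fell in S. mikatae, 6 of 15 in S. paradoxus, 10 of 12 in mating and 10 of 15 in S. cerevisiae with alpha factor, beside 24.7%, 24.6%, 20.2% and 17.3% of all genes. Those that rose numbered 1, 0, 1 and 1. MCD1, a cohesin subunit, fell in all 4 groups, with means of −0.79 in S. mikatae, −0.89 in S. paradoxus, −1.25 in mating and −1.11 in S. cerevisiae with alpha factor. The list medians were −0.048, −0.15, −0.58 and −0.30 in the same order. Of 14 MBF targets, 4 were called higher in S. mikatae than in S. cerevisiae and 0 lower, beside 11.9% of all genes called in either direction, with HCM1, a forkhead transcription factor, at 1.18 and RAD27 at 0.74. For S. paradoxus minus S. cerevisiae, 3 of 15 were called higher and 0 lower, beside 16.3% of all genes, with HCM1 at 0.48. For S. mikatae minus S. paradoxus, 3 of 14 were called higher and 1 lower, beside 13.7% of all genes. HCM1 rose in S. mikatae, with a mean of 0.56.

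Of the other Start machinery, 0 of 13 rose and 3 fell in S. mikatae, 1 of 15 rose and 2 fell in S. paradoxus, 2 of 13 rose and 6 fell in mating, and 1 of 17 rose and 6 fell in S. cerevisiae with alpha factor. The falls in S. mikatae and S. paradoxus are no larger a share than among all genes (24.7% and 24.6%). CLB5, the S phase cyclin, fell in all 4 groups, with means of −0.31 in S. mikatae, −0.68 in S. paradoxus, −0.48 in mating and −0.65 in S. cerevisiae with alpha factor. NRM1, a corepressor of MBF, fell in mating (−0.93) and in S. cerevisiae with alpha factor (−1.41), as did YOX1, a homeodomain repressor (−1.0 and −1.11). The S. cerevisiae arrays with alpha factor ranged from −2.50 to −0.84 for NRM1 and from −1.90 to −0.66 for YOX1. NRM1 was not called in S. paradoxus (−0.15), nor was YOX1 in S. mikatae (−0.24) or S. paradoxus (−0.29). YHP1, a relative of YOX1, also fell in mating (−0.92) and in S. cerevisiae with alpha factor (−1.11). In S. mikatae (−0.22) and S. paradoxus (−0.20) YHP1 was below 0 and not called. Its alpha factor ratio was thus nearer 0 there than in S. cerevisiae, with called differences of 0.89 and 0.91. CDC28, the kinase itself, was not called, with means of 0.11 in S. mikatae, 0.17 in S. paradoxus and 0.070 in S. cerevisiae.

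The genes around Far1 in polarity and nuclear export moved in both directions. In S. mikatae 1 of 7 rose and 3 fell, in S. paradoxus 2 of 7 rose and 2 fell, in mating 3 of 4 rose and 0 fell, and in S. cerevisiae with alpha factor 3 of 7 rose and 1 fell. FUS3 rose in all 4 groups and was lower by 0.86 on the log2 scale in S. mikatae than in S. cerevisiae, and by 0.61 in S. paradoxus. STE18, the gamma subunit of the G protein, rose in S. paradoxus (0.40), in mating (0.83) and in S. cerevisiae with alpha factor (0.69). STE4, the beta subunit that binds Far1, fell in S. mikatae (−0.27) and in S. paradoxus (−0.70) and rose in mating (0.22), and in S. cerevisiae with alpha factor it had a mean of 0.12 and was not called.

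The kinase gene PHO85 and its cyclins other than the members, 8 genes in all, showed no response of the size of PCL2. Among them, 1 of 6 rose and 2 fell in S. mikatae, 0 of 8 rose and 3 fell in S. paradoxus, 0 of 4 rose and 2 fell in mating, and 0 of 8 rose and 2 fell in S. cerevisiae with alpha factor. PCL8, a cyclin of glycogen control, fell by 0.76 in S. mikatae, 0.75 in S. paradoxus and 0.48 in S. cerevisiae. Of genes for turnover of Sic1 and the cyclins, 3 of 5 rose in S. mikatae, 3 of 6 in S. paradoxus, 2 of 4 in mating and 2 of 5 in S. cerevisiae with alpha factor, and 1, GRR1 in S. paradoxus (−0.22), fell. CDC53, the cullin of the SCF ubiquitin ligase, rose in all 4 groups, by 0.37 in S. mikatae, 0.52 in S. paradoxus, 0.45 in mating and 0.30 in S. cerevisiae with alpha factor.

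**Figure D4:**
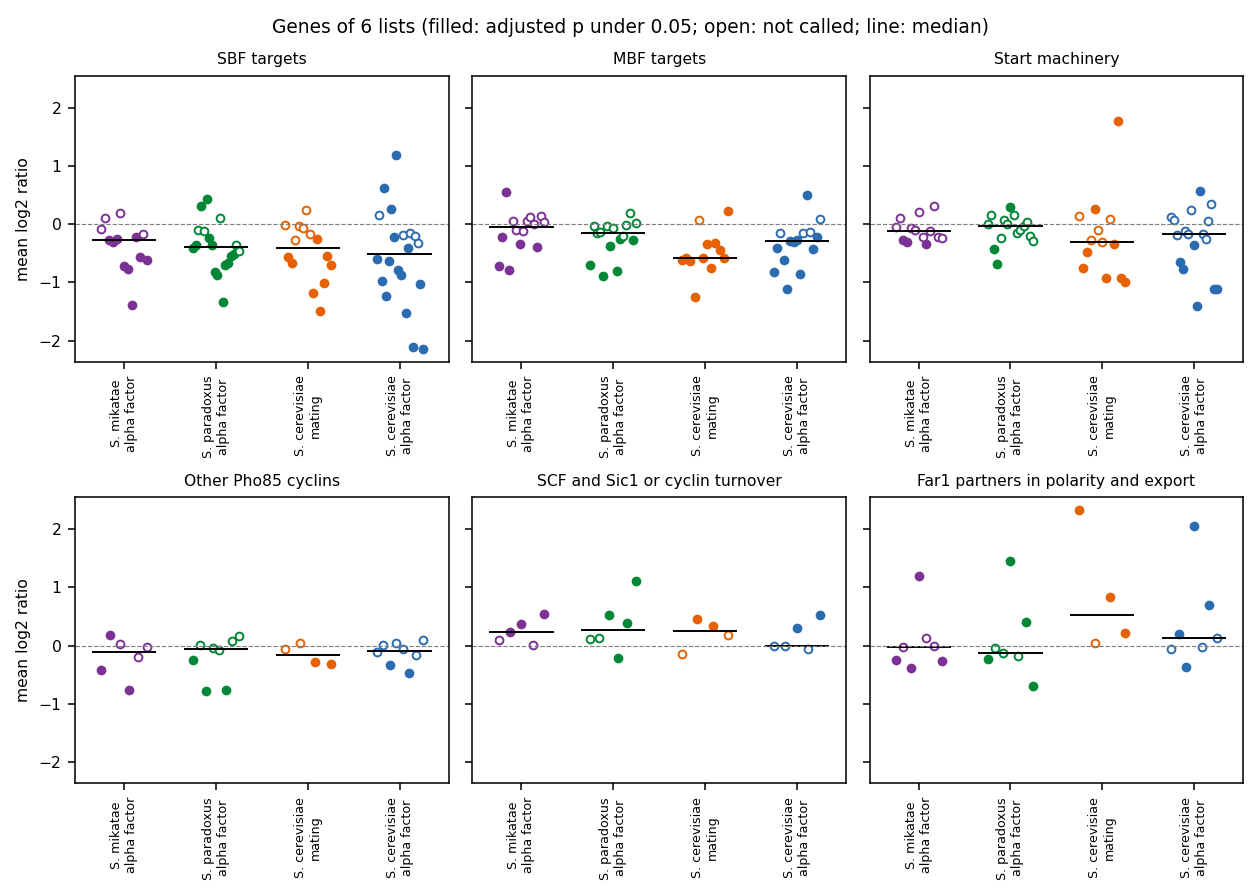
Mean log2 ratio (vertical axis) of every tested gene of the 6 lists by group, filled where the adjusted p was under 0.05 and open where not, with the list median as a line. SBF targets lie mostly below 0 in all 4 groups, and MBF targets have their lowest median, −0.58, in mating.

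In the S. cerevisiae reference annotation (R64) none of the neighbouring genes examined overlaps a member. The gene next to CLN1 on its upstream side is CIK1, a kinesin partner used in nuclear fusion, which was singled out after its values were seen. CIK1 averaged 2.71 in S. paradoxus, 1.18 in mating and 1.99 in S. cerevisiae with alpha factor, and it had no value in S. mikatae. Adjacent genes thus rose and fell in the same 3 groups. The genes beside PCL2 had means of −0.63, −0.26, −0.36 and −0.49 (VCX1, a vacuolar exchanger) and 0.50, 0.56, −0.14 and 0.081 (CDC48, an ATPase) in S. mikatae, S. paradoxus, mating and S. cerevisiae with alpha factor. None of these was near the values of PCL2.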

How the data were processed

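The authors deposited 1 value per ORF and array, read here as the log2 ratio of channel 1 (treated or mated) over channel 2 (its own reference). How those ratios were logged, centred, normalized and set to missing, and on which scanner, is not given in the sources used here. Channel labels give the treated sample Cy5 and the labelling protocol gives it Cy3, so the direction rests on 6 pheromone-induced genes (FUS1, FIG1, PRM1, KAR4, STE2 and BAR1). Per the labels, arrays of a group are numbered repeats, and where these did not come from separate cultures the p-values measure technical spread.

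Each array was centred on its median. Of 6132 ORFs, 5665 took a name from the S. cerevisiae reference gene table and 467 kept their own. All 13 arrays entered 1 fit in limma 3.58.1 (R 4.3.3) with a mean per group. In this fit each gene has 1 spread, pooled over the groups that measured it. Its p values and intervals thus do not measure the SD of a single group. A gene was tested where every group compared had values on 2 or more arrays. Moderated tests of group means against 0, of differences, and an F test over the 3 alpha factor groups were adjusted by Benjamini-Hochberg over all genes tested, with a threshold of 0.05. Intervals are 95% intervals of limma's unadjusted test. The code was tested on simulated data. The number of arrays limits the precision, and spot intensities were not used.

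Members and lists were chosen with earlier results of these data known. Named besides the members are the direction genes, up to 2 highest and 2 lowest called genes of a list per comparison that were measured on every array compared, and the 3 genes nearest to each member measured on at least 6 arrays. FUS3, KAR4, FUS1, STE2 and FIG1 by array, CDC28 and the chromosomal neighbours lie outside this rule and were chosen after their values were seen. Replicate numbers are not said to mark a shared day or culture, and no pairing between groups was assumed. Deviations from the group means had correlations of −0.261 to 0.334 in the 18 pairs that share a number. In the 45 pairs that do not, they were −0.336 to 0.378. These ranges overlap and cannot exclude a pairing of some groups.

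Alternatives were values without centring, a common spread of arrays, quantile normalization, 2 other filters on missing values (at least 1 array per group, or all 13 arrays), a replicate block, robust empirical Bayes, weights per array, a fit of the compared arrays alone, and each array left out in turn. One list of genes and 2 of the nearest genes are not reported here. A planned search of promoter motifs was not run, and sequences were not used here.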

Additional observations from a re-analysis of the deposited data

Results flagged for a closer look

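The FAR1 response was smaller in S. mikatae than in both other species. The difference was −1.19 on the log2 scale from S. cerevisiae and −0.92 from S. paradoxus, each called by limma's contrast, and the F test over the 3 species gave 16.5. Under every alternative run, the first stayed between −1.37 and −0.84 with adjusted p values of 0.00163 to 0.0247. The second was lost under 4 of them.

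CLN1 was nearer to no change in S. mikatae than in both other species. The difference was 0.74 from S. cerevisiae and 0.66 from S. paradoxus, with an F of 17.6. Over the alternatives run these were 0.59 to 0.85 (adjusted p values of 0.000436 to 0.0213 in limma) and 0.53 to 0.76 (0.00276 to 0.0341).

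PCL9 differed between mating and alpha factor in S. cerevisiae, by −0.73, with values of −0.84 to −0.66 and adjusted p values of 0.000425 to 0.0172 in limma over the alternatives run.

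In S. mikatae, the only group with 4 arrays, no member had an array whose gap to the next, divided by the group's range, reached Dixon's 95% critical value. The largest such ratios were 0.777 for SIC1 and 0.724 for PCL2, whose low array was replicate 2.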

How the results depend on the processing

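The 25 called values of single members kept their direction in all 328 alternatives run and their call in 321. The call was lost for PCL9 in mating and SWI4 in S. cerevisiae without the arrays named above, and for FAR1 in S. mikatae minus S. paradoxus without S. paradoxus replicate 1 or 2, with a common spread (−0.65, adjusted p = 0.138 in limma) and with quantile normalization (−0.78, adjusted p = 0.0720); the cause was not tested. The array named beside PCL1, PCL2, PCL9 and WHI5 in the report added a call when left out. PCL9 in S. mikatae minus S. cerevisiae was also called with a common spread (−0.47), quantile normalization (−0.49), genes on all 13 arrays (adjusted p = 0.0364) and array weights (−0.52), and its F test with a common spread, quantile normalization and weights (adjusted p = 0.0359, 0.0318 and 0.00484).

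Members called changed by more than 1.5 times as follows. With genes on all 13 arrays, of which there are 4 members, they were 2 in S. mikatae, 3 in S. paradoxus, 1 for S. mikatae minus S. paradoxus, 2 for mating minus alpha factor and 1 for the F test. With array weights they were 4 for S. mikatae minus S. cerevisiae, 3 for mating minus alpha factor and 4 for the F test. Weights added PCL2 and PCL9 for S. mikatae minus S. cerevisiae and in the F test, PCL2 for S. mikatae minus S. paradoxus, and PCL2 and SWI4 for mating minus alpha factor. Only the arrays compared gave 2 for mating minus alpha factor, where PCL2 was added. The same setting gave 6 in S. mikatae, where CLN1 and SIC1 were added. That is exactly 1.5 times the count in the fit of all arrays, and other changes of this size are not listed. A common spread and quantile normalization each gave 1 for S. mikatae minus S. paradoxus. Over all genes, the filter of 13 arrays left 2194 genes and called 1245 in S. mikatae, 1193 in S. paradoxus, 936 in mating, 823 in S. cerevisiae, 341 for S. mikatae minus S. cerevisiae and 421 for S. paradoxus minus S. cerevisiae, and array weights called 856, 1204 and 914 for S. mikatae minus S. cerevisiae, S. paradoxus minus S. cerevisiae and mating minus alpha factor.

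With the replicate block, the numbers of members called were 4 in S. mikatae, 5 in S. paradoxus, 3 in mating and 6 in S. cerevisiae, and 2, 0, 2, 1 and 2 for S. mikatae minus S. cerevisiae, S. paradoxus minus S. cerevisiae, S. mikatae minus S. paradoxus, mating minus alpha factor and the F test, as without the block. Genes called for S. mikatae minus S. cerevisiae fell to 339 with it, against 517 without. CLN2 in S. paradoxus minus S. cerevisiae turned to 0.017.

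Leaving out 1 array gave 968 to 1099 called genes in mating, 1124 to 1402 in S. cerevisiae, 309 to 492 for S. mikatae minus S. cerevisiae, 446 to 703 for S. paradoxus minus S. cerevisiae and 294 to 498 for mating minus alpha factor, with 2 to 4 and 1 to 3 members called for S. mikatae minus S. cerevisiae and minus S. paradoxus.

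Reversals touched only uncalled values. PCL1 in S. mikatae became 0.0014 (quantile) and 0.026 (weights), PCL9 there −0.031 (weights) and SIC1 in S. paradoxus 0.0066 (weights). SWI4 became 0.032 and 0.035 for S. mikatae minus S. cerevisiae, 0.042 and 0.035 for S. paradoxus minus S. cerevisiae and −0.0094 and −0.00019 for S. mikatae minus S. paradoxus, under a common spread and quantile normalization. CLN3 in S. mikatae minus S. paradoxus became 0.071, 0.068 and, with weights, 0.016. With weights, CLN1 and PCL2 in S. paradoxus minus S. cerevisiae became −0.016 and 0.094. Leaving out 1 array gave −0.086 to 0.096 for PCL1 in S. mikatae, −0.25 to 0.018 for SIC1 in S. paradoxus and −0.16 to 0.021 for SWI4 in mating. For S. mikatae minus S. cerevisiae it gave −0.011 to 0.33 (WHI5) and −0.077 to 0.037 (SWI4). For S. paradoxus minus S. cerevisiae it gave −0.076 to 0.20 (CLN1), −0.048 to 0.017 (CLN2), −0.25 to 0.057 (PCL1), −0.11 to 0.094 (PCL2) and −0.11 to 0.0048 (SWI4). For S. mikatae minus S. paradoxus it gave −0.066 to 0.079 (CLN3), −0.22 to 0.044 (SIC1) and −0.0040 to 0.061 (SWI4).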
